A study of Canis lupus familiaris with 8 samples.

Results

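The genes described here encode 55 cytosolic ribosomal proteins and were chosen by symbol, 32 of the large subunit (RPL) and 23 of the small subunit (RPS and RPSA). Of these, 54 had a row among the 35048 rows of the count tables, 31 of the large and 23 of the small subunit, and all 54 passed the filter on low counts. RPL10 was not analysed here. RPL32 stood in 2 rows, and the row with more counts was used.

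The cytosolic ribosome is built from a large and a small subunit, and each subunit is a set of ribosomal RNAs held together by ribosomal proteins. The mRNAs of these proteins begin with a run of pyrimidines, the terminal oligopyrimidine motif, through which the mTOR pathway and the RNA-binding protein LARP1 control their translation together. They are among the most abundant mRNAs of resting and dividing lymphocytes.

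RNA had been taken from peripheral blood mononuclear cells of 8 dogs and counted as tags next to the poly(A) end of each transcript, so a count depends little on transcript length. The 5 obese dogs were a Dachshund (dog 1), a Chihuahua (dog 2), 2 Labrador retrievers (dogs 3 and 4) and a Welsh Corgi (dog 5). The 3 normal dogs were all Beagles, so body condition and breed cannot be told apart in any difference below. The labels give no age, sex, treatment or body condition score.

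Library depth was 10264202 to 14910982 counts among the obese and 10408203 to 14811053 counts among the normal dogs. The lowest count of any of the 54 genes was 204, for RPL7 in normal dog 2 (exact Poisson 95% interval 177 to 234, counting error only). Every marker on the T cell and monocyte lists was detected in every dog, and of 11 B cell markers MS4A1 was at 0 in normal dog 2. Obese dog 3 stood apart from the other obese dogs, with 1208 CPM of summed erythroid markers, beside 19.95 to 58.3 CPM for the remaining 4 and 17.6 to 21.7 CPM for the normal dogs, and with 7192 CPM of summed neutrophil markers. Calls and medians that changed when this library was left out are given with and without it. CPM are counts scaled to a common library size, with TMM (trimmed mean of M values) factors.

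The 54 members together took 2.90 ± 0.722% of all counts in the obese dogs and 1.92 ± 0.724% in the normal dogs (SD, n = 5 and n = 3). Ribosomal protein genes outside the members are not in these sums. By dog the share was 3.27, 3.35, 1.68, 3.40 and 2.83% in obese dogs 1 to 5, against 2.68, 1.24 and 1.84% in normal dogs 1 to 3. The groups overlapped on this scale: obese dog 3 lay below normal dogs 1 and 3, and the remaining 4 obese dogs lay above every normal dog. On the TMM scale the summed members came to 38023, 31727, 22503, 26776 and 24628 CPM in the obese dogs, against 24711, 14255 and 17369 CPM in the normal dogs. Here obese dog 3 lay above normal dogs 2 and 3, and normal dog 1 lay above obese dogs 3 and 5.

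Taken by subunit, the large subunit members held 1.39 ± 0.297% of an obese and 0.966 ± 0.366% of a normal library, and the small subunit members 1.51 ± 0.429% of an obese and 0.953 ± 0.359% of a normal library. The ratio of obese to normal means was 1.44 for the large and 1.59 for the small subunit. Without normal dog 2 the ratios were 1.22 and 1.36, and without normal dog 1 they were 1.79 and 1.99, the lowest and highest values on leaving out 1 dog. These sums were compared without a test, because the genes were chosen with earlier results of these data known.

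Large subunit counts divided by small subunit counts, a ratio that library scaling cannot change, were 0.871, 0.958, 1.161, 0.855 and 0.887 in obese dogs 1 to 5, against 1.004, 0.975 and 1.054 in normal dogs 1 to 3. In 4 of 5 obese dogs the small subunit members outweighed the large subunit members by more than in any normal dog, and obese dog 3 had the highest ratio of all 8. The mean ratio in obese dogs was 0.936 of that in normal dogs, and 0.883 of it without obese dog 3. This contrast holds for the listed members only. For ribosomal protein genes outside the members, the ratio of obese to normal mean shares had the opposite order, 1.49 for large and 1.33 for small subunit genes.

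**Figure D1:**
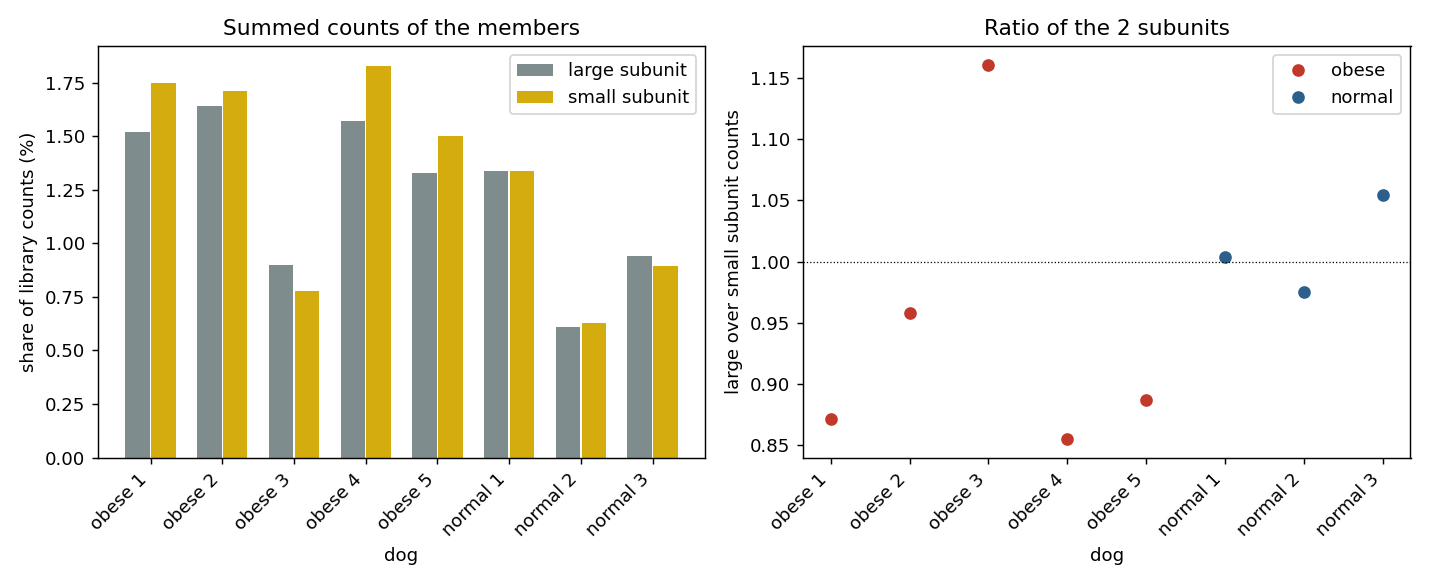
Left, summed counts of the large (grey) and small (yellow) subunit members as percent of library counts in each dog. Right, large over small subunit counts in each dog, obese in red and normal in blue, on an axis that does not start at 0. Obese dog 3 and normal dogs 2 and 3 have the lowest shares, and obese dog 3 has the highest ratio, 1.161.

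No member passed the threshold in either direction (edgeR quasi-likelihood test, adjusted p under 0.05 over the 20632 genes tested), where 0.0485% of all genes passed as higher and 0.184% as lower in the obese dogs. The smallest adjusted p was 0.148, for RPS21. With DESeq2 3 members passed as higher, RPLP1, RPS16 and RPS21, where 2.90% of all genes did. With limma-voom and quality weights 17 passed, where 9.15% of all genes did. Without obese dog 3, edgeR passed 5 members as higher, RPL19, RPS19, RPS21, RPS27 and RPS29, beside 3.25% of all genes.

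Direction was shared by nearly all members. Of the 54, 52 had a fold change above 0, or 96.3%, against 55.3% of all genes tested, and with upper-quartile scaling 48 of the 54 were above 0, against 48.3% of all genes. The median log2 fold change was 0.47 for the large subunit (quartiles 0.29 and 0.67) and 0.64 for the small subunit (0.46 and 0.88), beside 0.09 for all genes tested. The quartile ranges of the subunits overlapped, and their difference was not tested. An unadjusted p under 0.05 with higher values in obese dogs was found for 16 members, 29.6% of them against 9.01% of all genes, and for 0 members with lower values, against 6.73% of all genes. The number of members with an unadjusted p under 0.05 rested on single dogs: it was 3 without normal dog 2, 4 without normal dog 3 and 24 without normal dog 1, and 20 without obese dog 3.

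**Figure D2:**
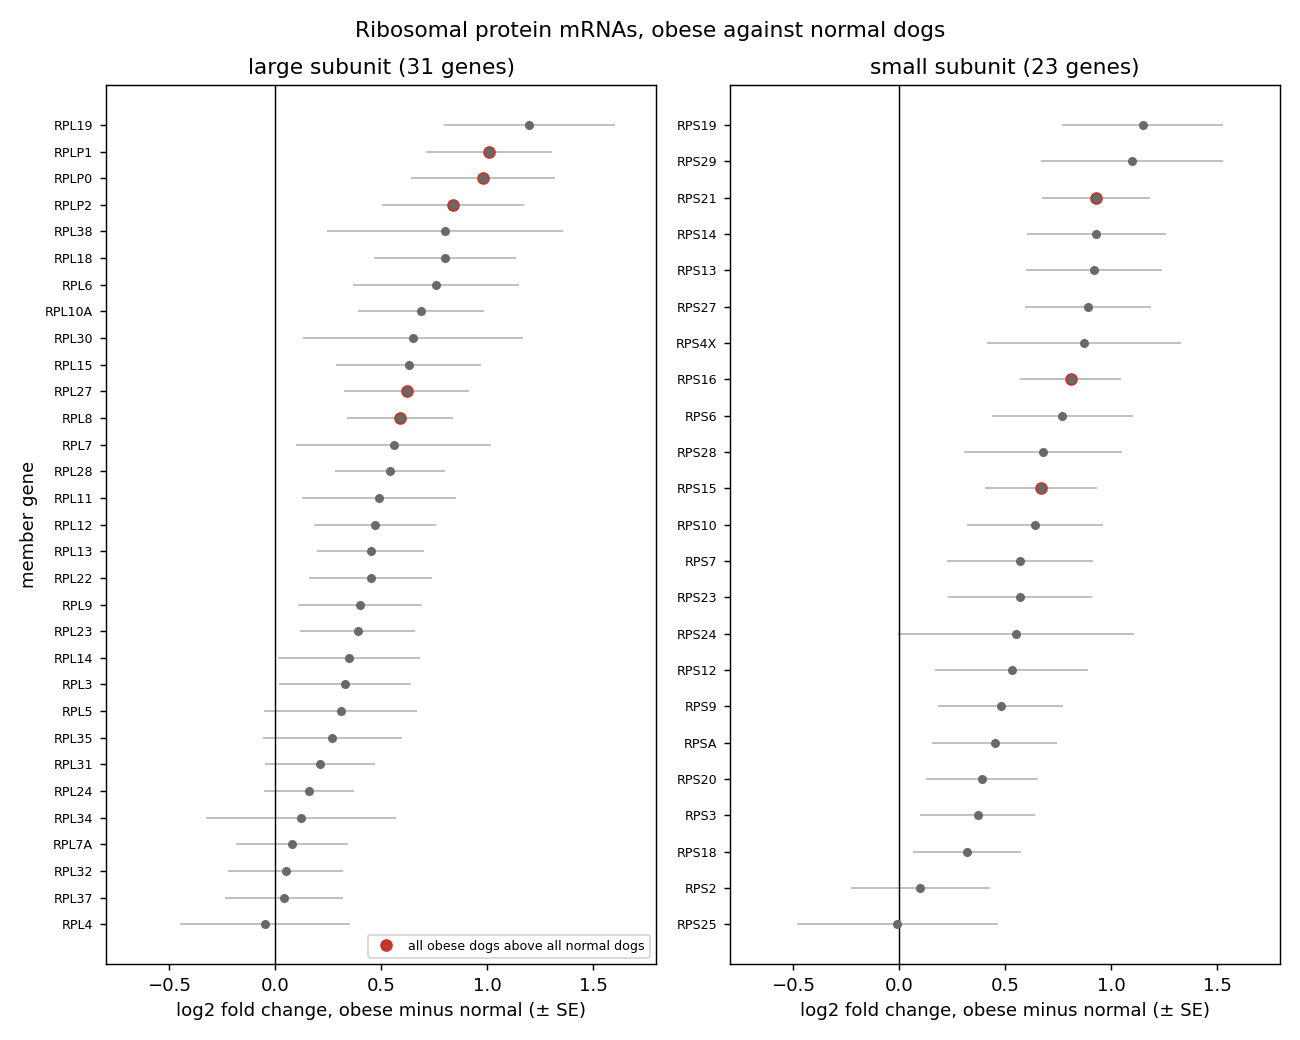
Log2 fold change of each member, obese minus normal, with its standard error, for the 31 large subunit and 23 small subunit genes. Red points mark the 8 genes in which all 5 obese dogs lay above all 3 normal dogs, and 52 of 54 points lie above 0.

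The size of the difference depended on which Beagle was included. Normal dog 1 had the highest level of the 3 normal dogs for 52 of 54 members and exceeded the lowest obese dog for 44, whereas normal dog 2 was lowest of the 3 for 45 and exceeded the lowest obese dog for 5. Without normal dog 1 the medians were 0.77 (large) and 0.89 (small), and without normal dog 2 they were 0.20 and 0.43. Without obese dog 3 they were 0.52 and 0.71. Among the obese dogs, dog 1 was highest for 30 members and dog 3 lowest for 29.

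All 5 obese dogs lay above all 3 normal dogs for 8 members, 14.8% of them, where 5.75% of all genes did so. They were RPL8, RPL27, RPLP0, RPLP1 and RPLP2 of the large and RPS15, RPS16 and RPS21 of the small subunit. RPL8 had 653 to 979 CPM in obese and 430 to 632 CPM in normal dogs. RPL27 had 163 to 185 CPM in obese dogs and 59.5 to 156 CPM in normal dogs. RPS15 had 518 to 727 CPM in obese and 292 to 517 CPM in normal dogs, with obese dog 3 and normal dog 1 nearly level. For 0 members did all obese dogs lie below all normal dogs, where 5.16% of all genes did.

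The stalk of the large subunit, made of RPLP0 with copies of RPLP1 and RPLP2, recruits the GTPases that drive elongation. RPLP1, the most abundant member, had 3439, 2321, 2200, 1915 and 1795 CPM in the obese dogs, against 1360, 995 and 1111 CPM in normal dogs. Its log2 fold change was 1.01 with a standard error (SE) of 0.299 and an adjusted p = 0.170 by edgeR. RPLP0, which anchors the stalk to the ribosomal RNA, had 784, 418, 584, 374 and 340 CPM in obese dogs, against 338, 206 and 216 CPM in normal dogs (0.98, SE 0.341, adjusted p = 0.228). Its separation was narrow, between obese dog 5 and normal dog 1. RPLP2 had 2111, 1269, 942, 1043 and 922 CPM in obese dogs, against 835, 639 and 628 CPM in normal dogs (0.84, SE 0.334, adjusted p = 0.269). In all 3 stalk genes obese dog 1 was highest and the groups did not overlap.

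RPL19 and RPL18 joined the stalk genes among the 5 large subunit members with the smallest p. RPL19, which takes part in a bridge between the subunits, had 177, 334, 123, 268 and 194 CPM in obese dogs, against 94.2, 52.5 and 140 CPM in normal dogs (log2 fold change of 1.20 with an SE of 0.402, adjusted p = 0.215 by edgeR, the largest fold change of the 54). The groups overlapped, since obese dog 3 lay below normal dog 3, and without obese dog 3 the adjusted p in edgeR was 0.0489. RPL18 had 923, 545, 595, 435 and 376 CPM in obese dogs, against 422, 253 and 316 CPM in normal dogs (0.80, SE 0.336, adjusted p = 0.292), and obese dog 5 lay below normal dog 1. RPL4, which lines the tunnel through which the new protein leaves, was the 1 large subunit gene with a fold change below 0. It had 174, 319, 208, 214 and 207 CPM in obese dogs, against 348, 83.5 and 264 CPM in normal dogs (−0.05, SE 0.402). Its normal dogs spanned the whole obese range, and its sign changed in 4 of 16 alternatives.

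Among small subunit genes RPS21 had the smallest p, with 312, 221, 186, 274 and 273 CPM in obese dogs, against 156, 106 and 136 CPM in normal dogs (log2 fold change of 0.93 with an SE of 0.255, adjusted p = 0.148 by edgeR). RPS16, whose tail reaches the transfer RNA in the P site, had 783, 575, 598, 649 and 622 CPM in obese dogs, against 445, 356 and 306 CPM in normal dogs (0.81, SE 0.239, adjusted p = 0.171). Both genes had every obese dog above every normal dog, obese dog 3 included. RPS19, needed to mature the small subunit RNA and the gene most often mutated in human Diamond-Blackfan anaemia, had 913, 1091, 466, 747 and 781 CPM in obese dogs, against 555, 208 and 317 CPM in normal dogs (1.15, SE 0.380, adjusted p = 0.210). Obese dog 3 lay below normal dog 1 there. Without obese dog 3 the adjusted p in edgeR was 0.0302 for RPS21 and 0.0475 for RPS19.

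RPS27, a zinc finger protein, had 171, 164, 85.5, 175 and 160 CPM in obese dogs, against 105, 62.3 and 77.8 CPM in normal dogs (log2 fold change of 0.89 with an SE of 0.297, adjusted p = 0.215 by edgeR). RPS13 had 139, 147, 95.5, 122 and 156 CPM in obese dogs, against 103, 39.4 and 68.0 CPM in normal dogs (0.92, SE 0.321, adjusted p = 0.230). In both genes obese dog 3 alone lay within the normal range, and without it RPS27 had an adjusted p of 0.0283 in edgeR. RPS28, which sits by the exit of the mRNA channel and was the most abundant small subunit member, had 2852, 1884, 838, 2316 and 1886 CPM in obese dogs, against 1449, 1150 and 1051 CPM in normal dogs (0.68, SE 0.373, adjusted p = 0.404). Obese dog 3 was the lowest of all 8 dogs for RPS28 and the remaining obese dogs were above every normal dog. RPS25, on which internal initiation by several viral RNAs depends, had 143, 330, 98.9, 170 and 195 CPM in obese dogs, against 305, 70.6 and 192 CPM in normal dogs, with a log2 fold change of −0.01 (SE 0.475) whose sign changed in 6 of 16 alternatives. Normal dog 2 was lowest and obese dog 2 highest.

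**Figure D3:**
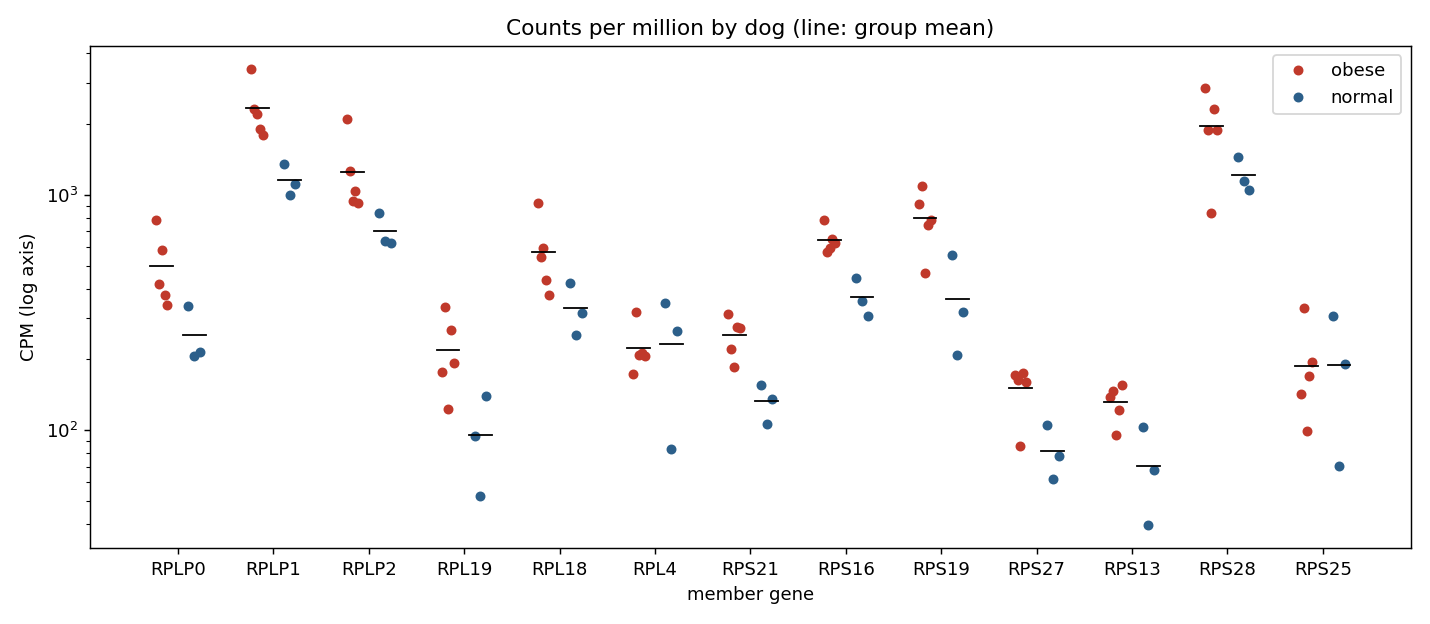
CPM of 13 members in each dog on a log axis, obese dogs in red left of normal dogs in blue, with a line at each group mean. The stalk genes, RPS21 and RPS16 show no overlap between groups, while in RPL4 and RPS25 the normal dogs span nearly the whole range.

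Members with roles beyond the ribosome were chosen for description after their values were seen. RPL5 and RPL11, which with the 5S RNA can bind MDM2 and stabilise p53, had log2 fold changes of 0.31 (SE 0.361) and 0.49 (SE 0.365), and in both the groups overlapped. RPS6, the substrate of the S6 kinases downstream of mTOR, had 620, 408, 430, 293 and 281 CPM in obese dogs, against 329, 180 and 206 CPM in normal dogs (0.77, adjusted p = 0.303, edgeR). Obese dogs 4 and 5 lay below normal dog 1. RPS14, the gene linked to anaemia in human 5q deletions, had 2003, 1501, 841, 1433 and 1230 CPM in obese dogs, against 963, 666 and 578 CPM in normal dogs (0.93, adjusted p = 0.232), with obese dog 3 as the single overlap. RPL22, which in mice is needed for the development of αβ T cells, had 102 ± 25.9 CPM in obese and 74.6 ± 26.0 CPM in normal dogs, a difference close to the SD of either group (adjusted p = 0.494).

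Although the proteins enter each ribosome in equal number, apart from the paired stalk proteins, their tag counts were far from equal. Mean CPM over the 8 dogs ran from 44.3 for RPL37 to 1892 for RPLP1, a 42.7-fold range. The large subunit median was 333 CPM and the small subunit median 542 CPM, and 33 of the 54 were among the 500 genes with the highest mean CPM. RPLP1, RPS28, RPS4X, RPS14 and RPS23 together held 28.3% of all member counts. Ribosomal protein genes have many processed copies in mammalian genomes, and the sources used here do not say where reads matching more than 1 locus were counted. Levels of single members and their differences between dogs are uncertain to that extent.

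Some members overlap a neighbouring gene in position, strand not considered, and may share reads with it. Single reads were not examined. In RefSeq (assembly UU_Cfam_GSD_1.0), 22 of the 54 overlap another gene, and in 6 the overlapping gene had over 10% of the member's counts. SURF1 had 0.997 to 1.02 times the counts of RPL7A in every dog, and an uncharacterised gene had 1.00 to 1.19 times those of RPL3. The counts of these pairs cannot be told apart. CARD6 had 1.55 to 3.24 times the counts of RPL37, and NDUFB10 had 0.471 to 0.743 times those of RPS2. RPL15 with NKIRAS1 and RPS9 with an uncharacterised gene were the remaining pairs. No member given by dog above was among the 6.

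The mix of ribosomal protein mRNAs was examined as each member's share of the summed member counts of a dog, which removes the overall level. RPLP1 was the 1 member whose share was higher in all obese than in all normal dogs. It held 9.04, 7.32, 9.78, 7.15 and 7.29% in obese dogs and 5.50, 6.98 and 6.39% in normal dogs. The same ratio was higher without overlap in 1.04% of all genes. RPL7A, RPL31, RPL32 and RPS18 had lower shares in all obese dogs. RPL32 had 1.75 to 2.40% in obese and 2.77 to 3.63% in normal dogs, and RPS18 had 1.33 to 1.66% in obese and 1.77 to 1.97% in normal dogs. Over all genes 13.1% were lower without overlap on this ratio, and 4 of 54 members were. The summed members, its denominator, were higher on average in obese dogs, which by itself lowers the ratio of other genes. Neither share of all genes is therefore a background for the members.

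Between dogs the share of a member varied by a median of 1.84-fold from its lowest to its highest dog, from 1.26-fold for RPL12 to 5.46-fold for RPL38. RPL38, known in mice for the translation of Hox mRNAs, took 0.310, 1.40, 1.24, 1.55 and 1.69% of the pool in obese dogs, against 1.14, 0.373 and 1.39% in normal dogs. RPL30 took 0.230, 0.686, 0.392, 0.662 and 0.789% in obese dogs and 0.660, 0.206 and 0.575% in normal dogs. In both genes obese dog 1 and normal dog 2 were the lowest dogs, and these were also the 2 libraries with the fewest counts, 10264202 and 10408203. The same 2 dogs had the lowest shares for 12 members, among them RPL4, RPL34 and RPS2, and the part of depth in this was not tested.

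Other wide spans followed other dogs. RPS24, another gene mutated in Diamond-Blackfan anaemia, took 1.30, 0.897, 0.586, 0.364 and 0.428% of the pool in obese dogs and 0.884, 0.709 and 0.781% in normal dogs. Its obese dogs spread on both sides of the normal ones. RPS4X, the X-linked form of RPS4, took 9.01% in obese dog 1 and 3.65 to 5.84% in obese dogs 2 to 5, against 4.01 to 5.65% in normal dogs. RPS29, a zinc finger protein, took 2.48 and 2.74% in obese dogs 4 and 5, 0.895 to 1.72% in obese dogs 1 to 3, and 0.939 to 1.38% in normal dogs.

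**Figure D4:**
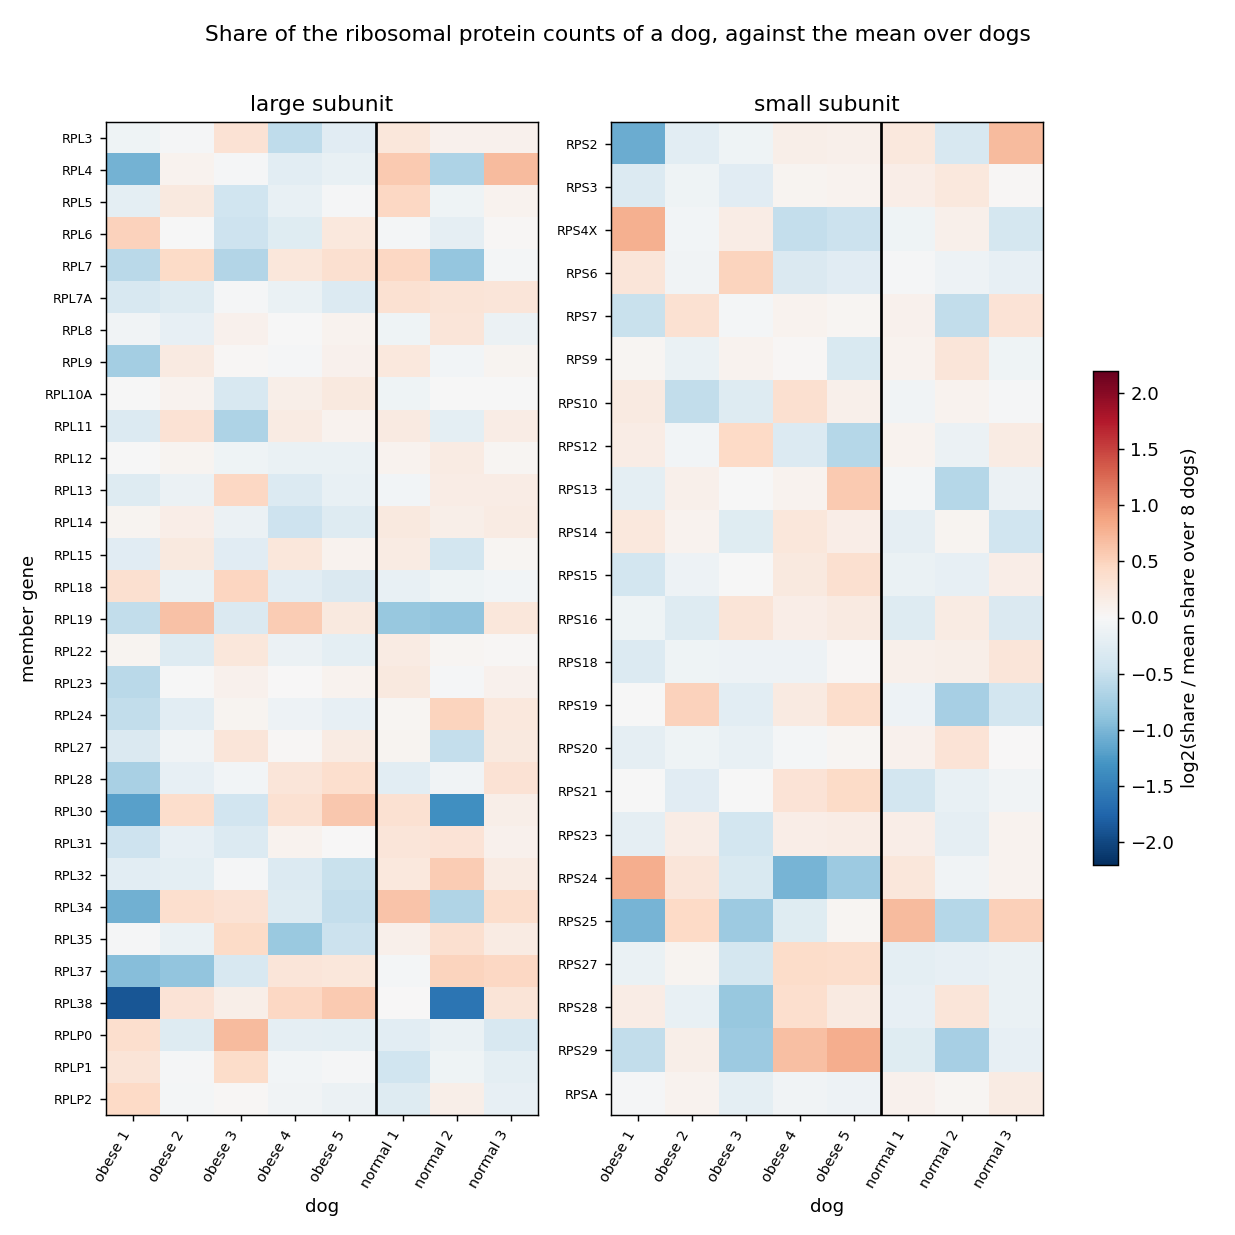
Share of each member in the summed member counts of a dog, as log2 of its ratio to the mean share over the 8 dogs, with obese dogs left and normal dogs right of the black line. RPL38 and RPL30 are lowest in obese dog 1 and normal dog 2, and RPS4X and RPS24 are highest in obese dog 1.

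Most ribosomal protein genes outside the 54 also had fold changes above 0. Of 16 such large subunit genes tested 13 did, with a median log2 fold change of 0.45, and of 11 small subunit genes 11 did, with a median of 0.44. In the edgeR test 0 of them passed, and 3 of each subunit had an unadjusted p under 0.05, all with higher values in obese dogs. FAU, which encodes a small subunit protein fused to a ubiquitin-like one, had 855, 619, 669, 610 and 548 CPM in obese dogs, against 444, 319 and 308 CPM in normal dogs (log2 fold change of 0.89 with an SE of 0.255, adjusted p = 0.164 by edgeR). RPL29 had 467, 389, 319, 382 and 346 CPM in obese dogs, against 317, 183 and 226 CPM in normal dogs (0.65, SE 0.257, adjusted p = 0.268). In both genes the groups did not overlap, and for RPL29 obese dog 3 and normal dog 1 were nearly level. FAU passed with DESeq2 (adjusted p = 0.0327), and both genes passed with limma-voom.

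Translation factors and related mRNAs with the same pyrimidine start had a median of 0.50 over 18 genes, of which 14 were above 0. In edgeR 0 passed, and 4 had higher and 1 lower values at an unadjusted p under 0.05. PFDN5, a subunit of the prefoldin chaperone, had 45.9 ± 7.89 CPM in obese and 27.0 ± 3.96 CPM in normal dogs (adjusted p = 0.199, edgeR), and EEF1D, an exchange factor for elongation factor 1A, had 279 ± 69.3 CPM in obese and 180 ± 38.5 CPM in normal dogs (adjusted p = 0.296). EIF3H, a subunit of initiation factor 3, had lower values in obese dogs, 103 ± 28.0 CPM against 183 ± 41.8 CPM in normal dogs (log2 fold change −0.83, adjusted p = 0.212). With limma-voom PFDN5, EEF1D and EIF3H passed, each in the same direction.

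Among 36 genes that build ribosomes, 22 were above 0 and the median log2 fold change was 0.14. In edgeR 0 passed, and 2 had higher and 2 lower values at an unadjusted p under 0.05. NOP58, a core protein of the snoRNA complexes that methylate ribosomal RNA, had 123, 158, 94.8, 78.5 and 87.0 CPM in obese dogs, against 208, 170 and 219 CPM in normal dogs (log2 fold change of −0.88 with an SE of 0.266, adjusted p = 0.180 by edgeR). Every obese dog lay below every normal dog. NHP2, of the complexes that make pseudouridine, had 35.8 ± 4.71 CPM in obese and 22.0 ± 2.33 CPM in normal dogs (0.70, adjusted p = 0.215). NOC2L, which overlaps SAMD11, had 105 ± 40.7 CPM in obese and 42.6 ± 20.3 CPM in normal dogs (1.30, adjusted p = 0.225). Without obese dog 3, which had 38.2 CPM, NOC2L passed in edgeR with a log2 fold change of 1.48 and an adjusted p of 0.0234, and it also passed with limma-voom, as did NOP58 and NHP2. Of 14 genes that control translation of these mRNAs, 10 were above 0, the median was 0.12, and in edgeR 0 passed, with 0 at an unadjusted p under 0.05. MTOR, the kinase, had 24.9 ± 7.58 CPM in obese and 15.2 ± 3.72 CPM in normal dogs (adjusted p = 0.331), RPTOR, its partner in complex 1, had 89.3 ± 32.9 CPM in obese and 57.9 ± 9.84 CPM in normal dogs (adjusted p = 0.454), and CNBP, an RNA-binding protein, had 99.9 ± 23.0 CPM in obese and 72.3 ± 12.5 CPM in normal dogs (adjusted p = 0.415). RPTOR in obese dog 3, at 31.0 CPM, was below every normal dog. Without that dog RPTOR passed in edgeR with a log2 fold change of 0.81 and an adjusted p of 0.0393, and with all 8 dogs it passed with limma-voom (adjusted p = 0.0297).

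Markers of several blood cells also varied between the dogs, and in bulk RNA fewer cells of a type and less RNA per cell cannot be told apart. Summed neutrophil markers took 0.0861, 0.0262, 0.536, 0.0447 and 0.0300% of counts in obese dogs 1 to 5, against 0.187, 0.610 and 0.473% in normal dogs 1 to 3. The 3 dogs with the most neutrophil marker counts, normal dog 2, obese dog 3 and normal dog 3, were the 3 with the smallest ribosomal protein shares, and normal dog 1 came next on both scales. Of the 12 neutrophil markers 11 were tested, 5 above and 6 below 0 with a median of −0.48, and CXCR2 and ELANE were at 0 in at least 1 dog. In the 3 dogs with the most neutrophil marker counts, S100A8, S100A9 and S100A12 made up most of the sum. They had 2131, 2225 and 1927 CPM of 7192 CPM in obese dog 3. CAMP and LTF ranked the dogs otherwise and were highest in obese dog 1, at 126 and 156 CPM.

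T cell markers summed to 1395 to 2920 CPM in obese and 940 to 1029 CPM in normal dogs, with 19 of 20 above 0 and a median log2 fold change of 1.32. Obese dog 3 was the lowest obese dog for these too. Of its library counts they took 0.104%, within the normal range of 0.0874 to 0.109%, while 0 T cell markers were at 0 in any dog. CD4, the 1 gene on the T cell list below 0, had 586 CPM in obese dog 3 and 114, 363 and 459 CPM in normal dogs 1 to 3. In the remaining obese dogs it had 29.9 to 51.2 CPM. The dogs highest for CD4, obese dog 3 and normal dogs 2 and 3, also had the most neutrophil marker counts. Which cells the CD4 counts came from was not tested. CD4 thus made up 586 of the 1395 CPM in obese dog 3, the lowest obese sum. Its mean was 146 CPM in obese and 312 CPM in normal dogs, opposite in direction to the sums. Sums without CD4 were not compared. Monocyte markers summed to 1222 to 2673 CPM in obese and 2255 to 3584 CPM in normal dogs, with 8 of 13 above 0 and a median of 0.05. VCAN was the largest of them in the normal dogs, at 1297, 2191 and 920 CPM, against 201 to 851 CPM in obese dogs. The lower sums in obese dogs thus rest largely on this 1 gene. Platelet markers, 8 of 8 above 0, summed to 95.3 to 2142 CPM in obese and 18.5 to 52.9 CPM in normal dogs, with the highest sum in obese dog 1, the dog with the highest summed ribosomal protein CPM. B cell markers summed to 94.9 to 438 CPM in obese and 90.5 to 172.5 CPM in normal dogs, and NK and cytotoxic markers to 112.7 to 343.6 CPM in obese and 108.3 to 170.5 CPM in normal dogs. Plasma cell markers summed to 155 to 271 CPM in obese and 326 to 1205 CPM in normal dogs. Transcripts of the mitochondrial genome took 1.79 ± 0.642% of counts in obese and 5.36 ± 0.849% in normal dogs. The part of these cell markers in the ribosomal protein difference was not tested.

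**Figure D5:**
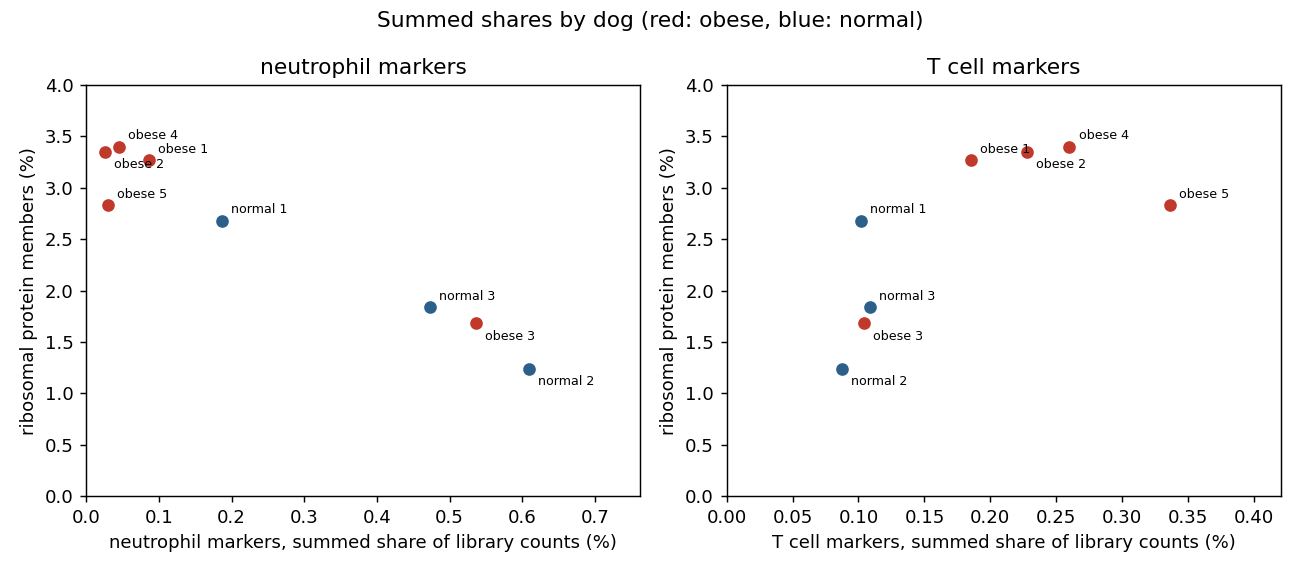
Summed share of the ribosomal protein members in each dog against the summed share of neutrophil markers (left) and of T cell markers (right), both in percent of library counts. Obese dog 3 lies among the normal dogs in both panels, and the 3 dogs with neutrophil shares of 0.473 to 0.610% have the 3 lowest member shares. In those 3 dogs S100A8, S100A9 and S100A12 make up most of the neutrophil share.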

How the data were processed

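Per the labels' protocols, total RNA was extracted with Trizol and 500 ng went into each Lexogen QuantSeq library. The authors deposited 1 table of raw counts per gene symbol for each dog, and the submitters' processing notes name Bowtie2 and bedtools. Their versions, the build, annotation and strand setting, and how multiply matching reads were treated, could not be learned from these sources. Of the 34637 distinct symbols, 33000 were found in the RefSeq table.

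Where a symbol stood in several rows, only its most counted row was used under that symbol. Group tests used edgeR 4.0.16 under R 4.3.3 (filterByExpr by group, TMM, robust glmQLFit and glmQLFTest, obese minus normal, Benjamini-Hochberg over 20632 genes, threshold 0.05). Standard errors are the absolute log2 fold change over the square root of F. The edgeR step was tested on simulated data. Alternatives used DESeq2 1.42.0 and limma 3.58.1, and are given at the end. No libraries agreed within sampling noise (lowest chi-square per degree of freedom 40.5). Replicates are separate dogs by label.

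Members and lists were chosen with earlier results of these data known. Values by dog were given, by rule, for the 5 members of each subunit with the smallest p, the most abundant member of each, members below 0 and the stalk, and in each pathway list for the 3 genes with the smallest p, of which some are not reported here. Other genes were chosen after their values were seen. Medians of list members are over fitted log2 fold changes.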

Additional observations from a re-analysis of the deposited data

Results flagged for a closer look

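Among the 5 obese dogs, 7 of 68 values examined (54 members, 11 other named genes, and the 2 sums and their ratio) had 1 dog far from the other 4, by a gap past the 95% critical value of Dixon for 5 values. Chance gives this in about 1 group in 20. In obese dog 1 RPS4X had 3424 CPM, against 930 to 1587 CPM in obese dogs 2 to 5, and EEF1D had 398 CPM. In obese dog 2 RPL4 had 319 CPM and RPL9 had 268 CPM. Obese dog 3 was the low one for RPS27, at 85.5 CPM against 160 to 175 CPM, for RPS15, at 518 CPM against 671 to 727 CPM, and for RPTOR, at 31.0 CPM against 97.8 to 110 CPM.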

How the results depend on the processing

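Over 16 alternatives the median log2 fold changes of both subunits stayed above 0, from 0.20 to 0.77 (large) and 0.43 to 0.89 (small), with both extremes in fits that left out 1 normal dog. Upper-quartile factors moved the median of all genes by over 0.1, to −0.03, and the members' medians to 0.35 and 0.52. Genes called higher and lower in obese dogs were 10 and 38 in the fit of all 8 dogs, 599 and 428 with the DESeq2 test and 1887 and 2055 with limma-voom and quality weights. With DESeq2 1 large subunit member, 2 small subunit members and 2 further ribosomal protein genes were higher, and with limma-voom 7, 10 and 8. Leaving out 1 dog gave 0 to 661 genes higher and 2 to 1023 lower, 0 to 1 large and 0 to 4 small subunit members and 0 to 1 further gene higher, with each highest count without obese dog 3. The cause was not tested.

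The dogs share replicate numbers only as labels, and deviations of same-numbered dogs correlated at −0.02, −0.24 and 0.01. No normal dog correlated best with the obese dog of its number. With the replicate number as a block 0 genes were higher and 0 lower, and 11 members had an unadjusted p under 0.05, a number that was 3 to 24 on leaving out 1 dog and 33 with limma-voom. Among single genes, 345 values kept their side of the threshold, 29 passed it only in an alternative and 10 changed sign. RPL4 was 0.15 with the block, 0.03 without obese dog 1 and also without normal dog 3, and ranged from −0.48 without normal dog 2 to 0.38 without normal dog 1. RPS25 was 0.09 with limma-voom, 0.01 with no filter on low counts, 0.07, 0.11 and 0.02 without obese dogs 1, 3 and 4, and ranged from −0.44 without normal dog 2 to 0.53 without normal dog 1. The lowest count of a member was 204, and the part of depth in the differences was not tested.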
